A study of Mus musculus with 20 samples.

Results

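The immunoglobulin genes of the deposited expression table were taken by their symbols: every row whose symbol starts with Ighv, Igkv, Iglv, Iglc or Ighg, together with Ighm, Ighd, Igha, Ighe, Igkc and Jchain. The rule found 362 of 51789 genes. They comprise 185 heavy-chain variable genes, 160 kappa variable genes, 3 lambda variable genes, 8 heavy-chain constant genes, the kappa constant gene Igkc, 4 lambda constant genes and Jchain. The tissue was intervertebral disc of BL6 mice, read as 20 total RNA libraries in 4 groups of 5. Nucleus pulposus (NP) is the gel-like core of the disc, and annulus fibrosus (AF) is the ring of fibrous lamellae around it. Every mouse was 24 months old at collection and had received DMSO by intraperitoneal injection each week from 18 months of age for 6 months, alone in the NP vehicle and AF vehicle groups and with MDL-800 dissolved in it in the NP MDL-800 and AF MDL-800 groups. MDL-800 is a small molecule that the series title ties to activation of SIRT6, a NAD-dependent deacylase, and the dose, the sex and whether animals were pooled are not given in the labels. The labels call the samples cells, whereas the protocol describes tissue dissected under a microscope, so blood, marrow or bone left on a piece would enter its library. Libraries carry the number of their sample title, and values below are listed in the order of these numbers: 1, 2, 3, 5 and 6 (NP vehicle), 15, 18, 19, 20 and 22 (NP MDL-800), 8, 9, 10, 12 and 13 (AF vehicle) and 25, 27, 28, 29 and 30 (AF MDL-800).

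An antibody is built from paired heavy and light chains. Each developing B cell joins a variable gene to short D and J segments (heavy chain) or to a J segment (kappa and lambda light chains), and the joined variable exon is spliced to constant exons, so that every antibody mRNA carries variable and constant sequence. The constant gene in use sets the isotype: Ighm gives IgM, Ighd IgD, the Ighg genes IgG subclasses, Igha IgA and Ighe IgE. Jchain encodes the joining chain that links IgM and IgA into polymers. Plasma cells, the secreting end stage of the lineage, hold very large amounts of these mRNAs and lodge for long periods in bone marrow. Because descendants of a B cell keep its joined genes, an expanded clone raises its own variable genes, but many unrelated clones use the same gene, and levels per gene do not show the joints that define a clone. Bulk RNA also does not show which heavy chain was paired with which light chain.

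The variable genes that led individual libraries are shown here because differences between libraries of a group, described further below, rest on them. The sequences are the coding part of the variable exon, or its last 300 bases where it is longer, in the 5′ to 3′ direction of the gene, read from the GENCODE M21 transcripts on GRCm38. Ighv1-80 (chr12:115912344-115912643, minus strand) and Ighv1-82 (chr12:115952538-115952837, minus strand) lead the heavy chain of AF MDL-800 library 25. They are 96.1% identical over 305 bases, and capitals mark the 12 positions at which they differ. A read that lies within this stretch must cover such a position to be assigned to either gene. Other parts of the genes were not compared. Igkv16-104 (chr6:68425774-68426072, plus strand) leads the kappa chain of the same library. Its capitals mark the longest run shared with its nearest relative among the members, Igkv11-125, which is 23 bases at 75.3% identity.
Ighv1-80: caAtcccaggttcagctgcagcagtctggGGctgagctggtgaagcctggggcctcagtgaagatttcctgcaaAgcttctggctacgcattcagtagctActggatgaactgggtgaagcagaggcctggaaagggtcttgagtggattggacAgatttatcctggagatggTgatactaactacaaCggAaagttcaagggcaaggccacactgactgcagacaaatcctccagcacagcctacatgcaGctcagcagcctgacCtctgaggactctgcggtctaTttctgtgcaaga
Ighv1-82: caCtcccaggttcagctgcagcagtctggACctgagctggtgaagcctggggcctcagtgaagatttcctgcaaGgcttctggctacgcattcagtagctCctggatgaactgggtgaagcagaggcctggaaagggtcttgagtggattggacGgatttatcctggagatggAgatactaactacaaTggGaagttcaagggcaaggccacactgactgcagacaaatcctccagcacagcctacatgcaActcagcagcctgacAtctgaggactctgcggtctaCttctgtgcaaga
Igkv16-104: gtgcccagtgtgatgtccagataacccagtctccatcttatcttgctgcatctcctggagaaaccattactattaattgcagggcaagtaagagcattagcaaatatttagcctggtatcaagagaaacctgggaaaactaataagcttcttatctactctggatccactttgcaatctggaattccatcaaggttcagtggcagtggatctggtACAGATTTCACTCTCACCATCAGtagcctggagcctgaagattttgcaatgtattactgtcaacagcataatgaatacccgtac

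The other pairs recur in NP and AF libraries whose column names share a number. Ighv1-78 (chr12:115868773-115869072, minus strand) and Igkv4-63 (chr6:69377944-69378243, minus strand) lead NP vehicle 6 and AF vehicle 13. Ighv11-2 (chr12:114048241-114048540, minus strand) and Igkv14-126 (chr6:67896345-67896642, plus strand) lead AF vehicle 9 and stand second and first in NP vehicle 2. Capitals again mark the longest run shared with the nearest other member: 43 bases with Ighv1-77, 66 bases with Igkv4-59, 162 bases with Ighv11-1 and 44 bases with Igkv14-111, at identities of 90.2%, 92.4%, 98.7% and 90.9%. For Ighv11-2 the relative, Ighv11-1, was itself listed at 0 in 19 of 20 libraries, and at 0.256 scaled FPKM in AF MDL-800 30.
Ighv1-78: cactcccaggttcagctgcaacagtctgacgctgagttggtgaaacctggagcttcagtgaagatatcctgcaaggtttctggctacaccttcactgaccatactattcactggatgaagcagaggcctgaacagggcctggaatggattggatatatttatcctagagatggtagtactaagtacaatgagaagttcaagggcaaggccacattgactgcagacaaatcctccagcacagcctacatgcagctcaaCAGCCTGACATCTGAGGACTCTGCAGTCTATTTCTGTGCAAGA
Igkv4-63: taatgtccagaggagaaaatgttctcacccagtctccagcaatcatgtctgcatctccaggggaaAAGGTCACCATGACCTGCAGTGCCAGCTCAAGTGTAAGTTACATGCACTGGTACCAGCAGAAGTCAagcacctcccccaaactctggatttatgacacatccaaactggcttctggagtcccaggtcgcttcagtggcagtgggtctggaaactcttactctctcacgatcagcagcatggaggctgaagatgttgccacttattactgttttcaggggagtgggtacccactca
Ighv11-2: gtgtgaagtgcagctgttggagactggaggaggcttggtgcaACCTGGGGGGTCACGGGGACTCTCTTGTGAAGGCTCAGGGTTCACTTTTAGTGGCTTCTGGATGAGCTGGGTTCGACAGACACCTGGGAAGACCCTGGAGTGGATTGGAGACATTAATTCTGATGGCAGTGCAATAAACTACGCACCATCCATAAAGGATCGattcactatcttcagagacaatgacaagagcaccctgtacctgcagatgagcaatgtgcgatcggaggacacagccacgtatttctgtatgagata
Igkv14-126: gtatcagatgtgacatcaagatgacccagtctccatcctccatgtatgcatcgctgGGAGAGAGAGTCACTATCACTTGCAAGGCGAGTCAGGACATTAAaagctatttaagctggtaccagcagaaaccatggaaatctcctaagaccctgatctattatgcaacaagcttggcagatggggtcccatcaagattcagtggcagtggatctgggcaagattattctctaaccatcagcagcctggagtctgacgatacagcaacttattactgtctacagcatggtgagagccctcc

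Values are FPKM (fragments per kilobase of transcript and per sequencing depth) divided by a scaling factor for each library, written scaled FPKM. Read depth, estimated from the steps between low values, ran from 12600000 fragments in NP MDL-800 19 to 21950000 in NP vehicle 3. At these depths 1 fragment on a heavy variable gene of median length (358 bases) was worth between 0.242 and 0.472 FPKM in NP and between 0.265 and 0.319 in AF. Of the 362 members, 242 were above 0 in some library. The remaining 120 were listed at 0 in all 20 libraries, and 103 of those are annotated as pseudogenes. The number of members at 1 FPKM or more, before scaling, in all 5 libraries of a group was 15 in NP vehicle, 8 in NP MDL-800, 97 in AF vehicle and 110 in AF MDL-800. For testing, genes had to reach 1 FPKM in at least 5 of the 20 libraries, which 160 members did (75 heavy variable, 70 kappa variable, 3 lambda variable, 7 heavy constant, 1 kappa constant and 3 lambda constant genes, and Jchain) among 16383 genes in all. The 202 members left out include Ighe, Iglc4 and all but 2 of the 130 pseudogenes.

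Antibody mRNA was present in every library and much more abundant in AF than in NP. Igkc, the constant gene of kappa light chains, the main light chain of mice, was the most abundant member in each of the 20 libraries. Among protein-coding and immunoglobulin genes it ranked from 1 to 29 in the AF libraries and from 61 to 1555 in the NP libraries. Scaled FPKM of Igkc were 159.6, 243, 116, 126 and 779 for the NP vehicle samples 1, 2, 3, 5 and 6, compared with 2180.1, 3018, 1792, 1297 and 2931 for the AF vehicle samples 8, 9, 10, 12 and 13. Under MDL-800 the values were 178, 231, 89.4, 50.9 and 239 in NP libraries 15, 18, 19, 20 and 22 and 7153, 2987, 3726, 1919 and 2960.1 in AF libraries 25, 27, 28, 29 and 30. The lowest AF library (12) exceeded the highest NP library (NP vehicle 6), and the other NP libraries were all below 250 scaled FPKM. On the log2(scaled FPKM + 1) scale the difference NP minus AF was -3.32 (SE 0.48; limma adjusted p = 0.000205) in vehicle, a 9.99-fold lower level on that scale, and -4.64 (SE 0.47; limma adjusted p = 1.27e-05) under MDL-800, 25.0-fold lower. Adding 1 FPKM understates the differences of low genes. In bulk tissue, fewer antibody-producing cells and less RNA per cell cannot be told apart.

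Jchain was lower in NP by a similar amount. Scaled FPKM of Jchain were 8.38, 10.3, 13.2, 11.0 and 39.7 for the NP vehicle samples 1, 2, 3, 5 and 6, compared with 106, 139.7, 106, 94.2 and 213 for the AF vehicle samples 8, 9, 10, 12 and 13. Under MDL-800 the values were 7.61, 9.32, 10.8, 2.67 and 14.9 in NP libraries 15, 18, 19, 20 and 22 and 179, 243, 246, 103 and 216 in AF libraries 25, 27, 28, 29 and 30. The tissues did not overlap within either treatment, and NP vehicle 6 was again the highest NP library. The log2 difference NP minus AF was -3.09 (SE 0.38; limma adjusted p = 6.8e-05) in vehicle and -4.39 (SE 0.37; limma adjusted p = 4.58e-06) under MDL-800. Exact two-sided permutation tests that took the libraries as unpaired gave p = 0.0079 for Igkc and for Jchain in both treatments. That is the smallest p that 5 against 5 unpaired libraries allow. The tests made no use of the numbers shared by NP and AF column names, described further below. If those numbers mark pairs, the p-values do not hold as given. The 12 genes tested this way, which are the 11 constant genes that passed the filter and Jchain, each had an exact p under 0.05 in both tissue comparisons, out of 48 such tests made over 4 comparisons.

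**Figure D1:**
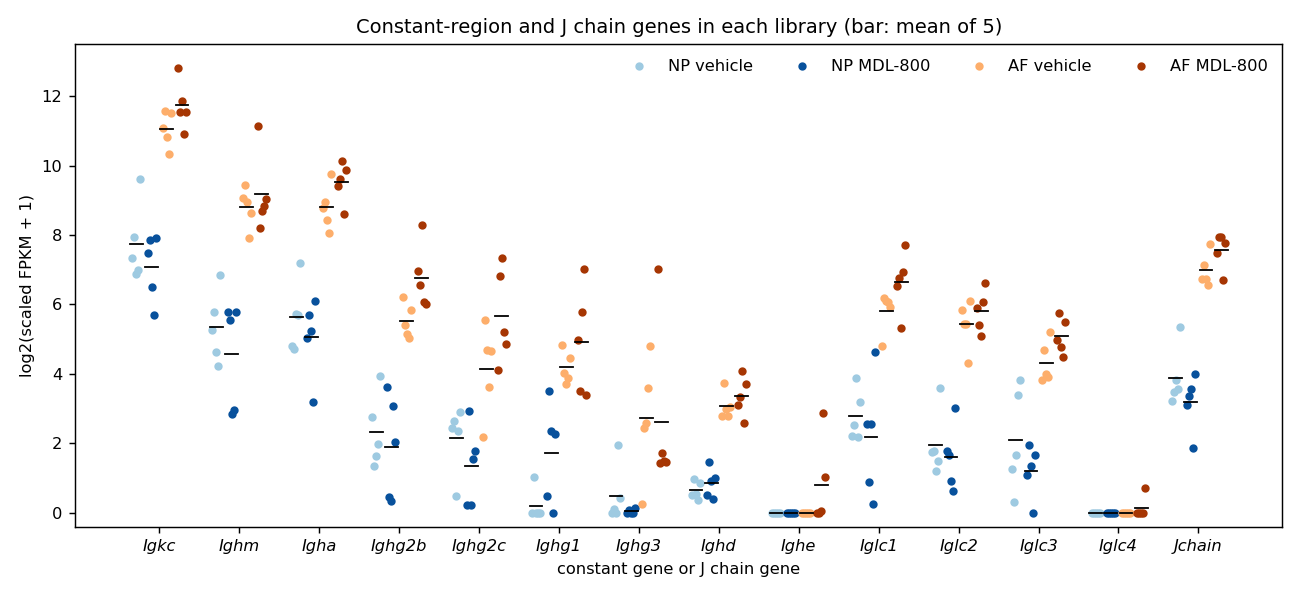
Level of each constant gene and of Jchain in each of the 20 libraries, as log2(scaled FPKM + 1) on the y axis, by gene on the x axis; points are libraries coloured by group and bars are means of 5. For Igkc, Ighm, Igha and Jchain every AF point lies above every NP point of the same treatment, while Ighe is at 0 outside 3 AF MDL-800 libraries and Iglc4 outside AF MDL-800 30.

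Among the heavy-chain isotypes, IgM and IgA genes were the most abundant in every library other than NP MDL-800 20, where Ighg2b lay between them. Scaled FPKM of Ighm were 37.3, 54.5, 23.7, 17.9 and 113 for the NP vehicle samples 1, 2, 3, 5 and 6, compared with 533, 699, 495, 239 and 399 for the AF vehicle samples 8, 9, 10, 12 and 13. Under MDL-800 the values were 54.4, 46.0, 6.22, 6.75 and 53.6 in NP libraries 15, 18, 19, 20 and 22 and 2233, 291, 409, 455 and 520.1 in AF libraries 25, 27, 28, 29 and 30. AF MDL-800 25 stood far above the other 4 libraries of its group for Ighm, and NP MDL-800 19 and 20 were the lowest of all libraries. Igha values were 26.9, 25.3, 52.0, 51.4 and 145 in NP vehicle, against 435, 491, 345, 266 and 868 in AF vehicle, with the MDL-800 libraries at 31.7, 51.4, 36.9, 8.15 and 67.3 in NP, against 679.6, 778, 1129.8, 391 and 943 in AF. The NP and AF libraries of a treatment did not overlap for either gene. The log2 difference NP minus AF in vehicle was -3.45 for Ighm (SE 0.46; limma adjusted p = 0.000113) and -3.17 for Igha (SE 0.46; limma adjusted p = 0.000202). Under MDL-800 it was -4.59 for Ighm (SE 0.74; limma adjusted p = 0.000312) and -4.48 for Igha (SE 0.49; limma adjusted p = 2.33e-05).

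The 4 IgG genes were the next in level, and their order changed from library to library. Ighg2b values were 5.73, 1.53, 2.09, 2.96 and 14.3 in NP vehicle, against 72.9, 41.3, 34.3, 32.0 and 56.9 in AF vehicle, with the MDL-800 libraries at 11.2, 0.368, 0.262, 7.43 and 3.09 in NP, against 123, 92.8, 313, 66.2 and 63.3 in AF. Ighg2c values were 4.45, 5.25, 0.395, 4.14 and 6.42 in NP vehicle, against 3.51, 46.2, 25.0, 11.5 and 24.2 in AF vehicle, with the MDL-800 libraries at 0.159, 6.64, 0.172, 1.94 and 2.41 in NP, against 16.2, 113, 159.9, 36.1 and 28.2 in AF. Ighg2b of the tissues did not overlap in either treatment, whereas Ighg2c in AF vehicle 8 lay below that of 4 NP vehicle libraries. Ighg1 values were 0, 1.04, 0, 0 and 0 in NP vehicle, against 27.7, 15.3, 12.1, 13.8 and 21.0 in AF vehicle, with the MDL-800 libraries at 0.388, 10.3, 4.12, 0 and 3.84 in NP, against 30.3, 10.4, 53.6, 129 and 9.54 in AF. Ighg1, the IgG1 gene, was listed at 0 in 4 of 5 NP vehicle libraries, and AF MDL-800 29 held the highest value. Ighg3 values were 0, 0.0722, 0, 2.84 and 0.355 in NP vehicle, against 0.199, 4.40, 5.02, 11.0 and 26.9 in AF vehicle, with the MDL-800 libraries at 0, 0.0631, 0, 0 and 0.113 in NP, against 128, 1.69, 2.27, 1.83 and 1.75 in AF. Ighg3, the gene of IgG3, was at most 2.84 in NP and was carried in AF MDL-800 by library 25, the other 4 lying between 1.69 and 2.27.

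All 7 tested heavy constant genes were called lower in NP in both treatments at a limma adjusted p under 0.05. The background was 33.9% of 16383 genes called lower in NP in vehicle and 37.2% under MDL-800. Ighg1, Ighg3 and Ighd reached 1 FPKM in fewer than 5 NP libraries and so needed AF libraries to pass the filter, which favours such a call. Among all genes that reached 1 FPKM in at least 5 NP libraries, 25.4% were called lower in vehicle and 29.0% under MDL-800. Log2 differences in vehicle were -3.20 for Ighg2b, -1.98 for Ighg2c, -3.98 for Ighg1, -2.24 for Ighg3 and -2.42 for Ighd (SE 0.45, 0.63, 0.27, 0.73 and 0.20; limma adjusted p = 0.000162, 0.0196, 3.98e-06, 0.0219 and 9.13e-06). Under MDL-800 they were -4.87, -4.33, -3.21, -2.57 and -2.51 in the same order (SE 0.68, 0.69, 0.82, 0.96 and 0.29; limma adjusted p = 0.000118, 0.000285, 0.00567, 0.0359 and 3.26e-05). The call of Ighg1 under MDL-800 depended on how the libraries were paired. Over the 6 libraries whose column numbers occur in both tissues it was -2.68, with a limma adjusted p of 0.0406 without and 0.0959 with that number as a block, alternatives chosen after seeing the data. The Ighg3 call changed with the libraries used. Under MDL-800 it held when any single AF library was left out. Over the same 6 libraries it was -1.48, with a limma adjusted p of 0.00072 without and 0.00475 with the block. Without NP vehicle 6 and AF vehicle 13 the limma adjusted p of Ighg3 in vehicle was 0.0749. Under MDL-800 it was 0.0359 with all libraries and between 0.0592 and 0.0631 when any of the 5 NP libraries was left out.

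IgD and IgE transcripts were scarce. Ighd values were 0.439, 0.970, 0.445, 0.306 and 0.810 in NP vehicle, against 5.93, 12.4, 6.98, 5.88 and 7.26 in AF vehicle, with the MDL-800 libraries at 0.428, 1.78, 0.878, 0.318 and 0.989 in NP, against 7.61, 9.03, 16.1, 4.95 and 12.1 in AF. The tissues did not overlap for Ighd in either treatment. Ighe, the IgE gene, was listed at 0 in 17 of 20 libraries and reached 0.0395, 6.30 and 1.03 scaled FPKM in AF MDL-800 28, 29 and 30. At the estimated depths these values correspond to about 1.16, 168 and 32.5 fragments. The comparison of Ighe between AF groups was not tested because the gene did not pass the filter on low values.

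Written as shares of the summed scaled FPKM of the 8 heavy constant genes, the isotype make-up ranged widely within groups. IgM took 49.4, 53.4, 53.6, 41.2 and 28.4% in the AF vehicle libraries and 69.4, 22.4, 19.6, 41.7 and 32.9% in the AF MDL-800 libraries. IgA took 40.4, 37.5, 37.3, 46.0 and 61.9% and 21.1, 60.1, 54.2, 35.9 and 59.7%. IgM outweighed IgA in AF vehicle 8, 9 and 10 and IgA outweighed IgM in 12 and 13, while the AF MDL-800 libraries ran from mostly IgM (25) to mostly IgA (27, 28 and 30). The 4 IgG genes together took 9.67, 8.19, 8.27, 11.8 and 9.19% in AF vehicle, against 9.25, 16.8, 25.4, 21.4 and 6.51% in AF MDL-800, so 3 MDL-800 libraries lay above the highest vehicle library and 2 did not. In NP the IgG share was 13.6, 8.91, 3.17, 12.5 and 7.53% in vehicle and 12.0, 14.9, 9.38, 38.1 and 7.20% under MDL-800, with library 20 far above the rest at a summed heavy constant level of only 24.6. Shares are relative levels of mRNA, and the shares of IgM, IgA and IgG each overlapped between treatments in both tissues.

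**Figure D2:**
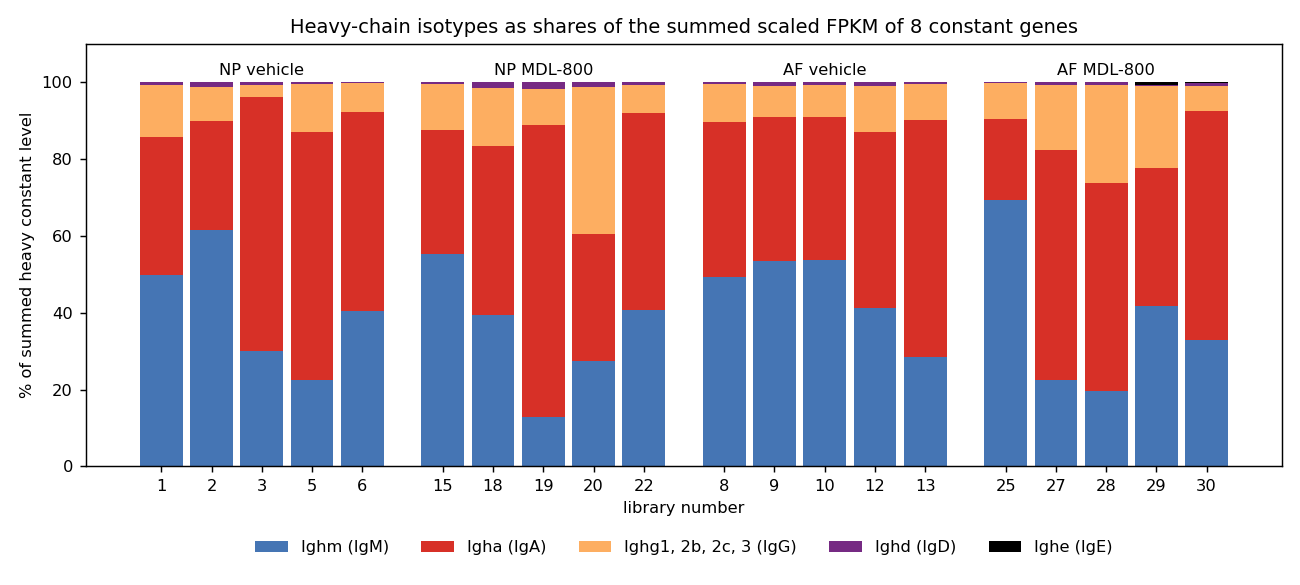
Share of the summed scaled FPKM of the 8 heavy constant genes taken by each isotype, in percent on the y axis, for each library on the x axis, with libraries grouped by tissue and treatment. IgM and IgA fill most of every bar; the IgG share is largest in NP MDL-800 20 at 38.1% and AF MDL-800 25 has the largest IgM share at 69.4%.

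By scaled FPKM, the identity of the leading IgG gene also changed between libraries. Ighg2b led in AF vehicle 8, 10, 12 and 13 with 44.1% to 69.9% of the IgG sum, and Ighg2c led in AF vehicle 9 with 43.1%. Among AF MDL-800 libraries, Ighg3 led in 25 with 43.1%, Ighg2c in 27 with 51.8%, Ighg2b in 28 and 30 with 59.2% and 61.6%, and Ighg1 in 29 with 55.2%. In NP the leading gene was Ighg2b in 5 libraries, Ighg2c in 2 and Ighg1 in 3. This order depends on the gene length that enters FPKM, for example 1136 bases for Ighg2c and 2488 for Ighg2b in AF vehicle 9. By estimated fragments Ighg2b led in AF vehicle 9 (2267), AF MDL-800 25 (6432, against 6279 for the second gene), AF MDL-800 27 (4249) and NP vehicle 5 (146). The summed IgG level of the NP libraries was 2.49 to 21.1 scaled FPKM, or about 124 to 832 fragments over the 4 genes at the estimated depths, against 2973 to 22904 in AF.

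Lambda light chains, the minor type in mouse, took 4.23% to 7.10% of the summed light-chain constant level in AF vehicle and 2.45% to 10.6% in AF MDL-800. Iglc1 values were 3.60, 4.76, 13.7, 3.57 and 8.19 in NP vehicle, against 27.2, 71.2, 67.6, 66.0 and 60.0 in AF vehicle, with the MDL-800 libraries at 4.86, 0.863, 4.88, 0.191 and 23.8 in NP, against 90.9, 108, 38.9, 120.4 and 209.7 in AF. All 3 tested lambda constant genes were called lower in NP in both treatments, beside 33.9% of all genes in vehicle and 37.2% under MDL-800. Log2 differences in vehicle were -3.02 for Iglc1, -3.46 for Iglc2 and -2.24 for Iglc3 (SE 0.36, 0.45 and 0.62; limma adjusted p = 6.31e-05, 0.000105 and 0.00988). Iglv1 supplied 61.6% to 96.7% of the lambda variable level in AF. Its values were 36.4, 99.3, 68.2, 90.4 and 101 in AF vehicle, against 116, 191, 49.6, 146 and 277 in AF MDL-800, and for both Iglv1 and Iglc1 library 8 was the lowest of its group, 28 the lowest of the MDL-800 group and 30 the highest. Iglc4 was above 0 in AF MDL-800 30 alone, at 0.654 scaled FPKM or about 1.96 fragments. NP MDL-800 20 listed all 3 lambda variable genes at 0.

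Across the 160 tested members, 118 were called lower in NP and 0 higher in vehicle, beside 33.9% and 21.8% of all genes, and 140 lower and 0 higher under MDL-800, beside 37.2% and 25.6%. Of the 160, 108 reached 1 FPKM in fewer than 5 of the 10 NP libraries and so needed AF libraries to pass the filter, which favours a call of lower in NP. The counts over tested members are therefore given as a description. Among the 52 members that reached 1 FPKM in at least 5 NP libraries, 48 were called lower in NP in vehicle and 51 under MDL-800. The corresponding share of all 13799 genes filtered in the same way was 25.4% and 29.0%. No overlap between the 5 NP and 5 AF libraries was seen for 56 of 160 members in vehicle, beside 41.0% of all genes tested, and for 93 under MDL-800, beside 49.1%. Of the vehicle calls, 109 were also made under MDL-800, which is 92.4% of the vehicle calls and 77.9% of the MDL-800 calls.

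By class, 56 of 75 heavy variable genes, 47 of 70 kappa variable genes and all 3 lambda variable genes were called lower in NP in vehicle, with 67, 58 and 3 under MDL-800. The shares of all genes called lower were 33.9% and 37.2%. Counts of members in this paragraph include genes that needed AF libraries to pass the filter, which favours such a call, and are a description. Median log2 differences in vehicle were -2.33 for heavy variable and -2.35 for kappa variable genes, beside -0.08 over all genes tested. Quantile normalization, which moved the median of all genes from -0.08 to 0.20 and turned the balance of all calls in vehicle from 3577 higher and 5550 lower to 6474 higher and 3925 lower, left 102 members called lower and 0 higher. Under MDL-800 it gave 127 members lower and 0 higher, with all calls turning from 4188 higher and 6102 lower to 6919 and 4288. Across all 362 members, only Ighv15-2, Igkv4-78 and Ighv1-31 had a higher mean in NP than in AF, and the only NP value of Ighv1-31 above 0 was that of NP vehicle 2 at 3.63 scaled FPKM; these 3 were picked out after their values were seen and none was tested.

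The summed levels place the variable genes beside the constant genes. Summed scaled FPKM of the heavy variable genes was 99.1, 136, 86.4, 82.0 and 346 in NP vehicle and 1183, 1501, 1028, 749 and 1503 in AF vehicle, and 110.1, 120.0, 53.9, 27.9 and 142 and 3952, 1683, 2137, 989.8 and 1687 in the MDL-800 groups. Kappa variable sums were 127, 172, 76.5, 106 and 674 in NP vehicle and 1599, 2475, 1345, 1121 and 2510.4 in AF vehicle, and 134, 209, 62.5, 39.0 and 187 and 5709.7, 2494, 2854, 1454 and 2342 under MDL-800. Both sums were highest in NP vehicle 6 within NP and in AF MDL-800 25 within AF, and lowest in NP MDL-800 20, as for Igkc. On average over the 20 libraries the highest heavy variable genes were Ighv1-80 (112 scaled FPKM), Ighv1-53 (42.4), Ighv1-82 (41.9), Ighv1-26 (37.5) and Ighv9-3 (37.4), and the highest kappa variable genes were Igkv16-104 (162), Igkv4-63 (63.3), Igkv8-27 (50.0), Igkv4-55 (47.8) and Igkv6-23 (45.1). For Ighv1-80, Ighv1-82, Igkv16-104 and Igkv8-27 that mean was mostly set by a single library.

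That library was AF MDL-800 25. Ighv1-80 was at 1964, 24.7, 27.6, 4.34 and 34.7 scaled FPKM in AF MDL-800 25, 27, 28, 29 and 30 and at 7.23, 26.9, 76.0, 15.2 and 23.6 in AF vehicle. Igkv16-104 was at 3074, 24.7, 8.52, 15.0 and 47.1 in AF MDL-800 and 20.2, 4.47, 4.27, 4.14 and 19.3 in AF vehicle. Ighv1-80 made up 49.7% of the heavy variable level of library 25 and Igkv16-104 53.8% of its kappa variable level, whereas the leading genes of the other 4 AF MDL-800 libraries held 5.85% to 12.7% and 7.19% to 9.70%. The second genes, Ighv1-82 at 526 and Igkv8-27 at 720.5, were likewise far above their levels in most other libraries, Igkv8-27 reaching 164 in AF MDL-800 27. Ighv1-80 and Ighv1-82 are the near-identical pair printed above, and how the authors assigned reads matching both is not stated, so the division between them is uncertain. In the same library Ighm stood at 2233 and Ighg3 at 128 scaled FPKM, both the highest of the 20 libraries, and Igkc at 7153 ranked first among protein-coding and immunoglobulin genes. Jchain was not raised beside the rest of the group, at 179 against 103 to 246. The summed B cell markers of this library were 126 and the summed plasma cell markers 316, inside the ranges of the other AF MDL-800 libraries (104 to 181 and 234 to 349).

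The effective number of variable genes, which is the inverse of the summed squared shares and equals the number of genes if all were equally abundant, was computed for each library. For heavy variable genes it was 15.0, 20.6, 18.3, 33.7 and 15.3 in AF vehicle, against 3.65, 25.4, 24.3, 26.5 and 37.9 in AF MDL-800. For kappa variable genes it was 15.2, 14.8, 18.7, 31.4 and 12.4 and 3.23, 25.2, 33.0, 26.6 and 34.1. Library 25 was the lowest for both chains, while the other 4 AF MDL-800 libraries exceeded every AF vehicle library other than 12. In NP the effective number ran from 7.73 to 26.9 for heavy and from 6.26 to 24.5 for kappa variable genes, and there the small number of fragments limits how many genes can be seen.

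**Figure D3:**
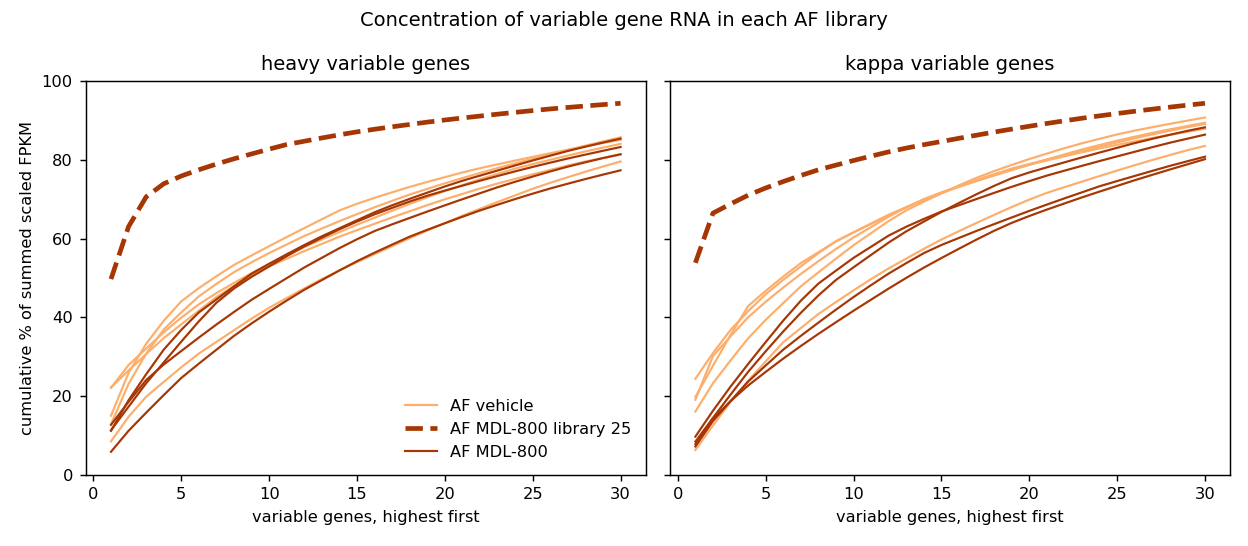
Cumulative share of the summed scaled FPKM of heavy (left) and kappa (right) variable genes, in percent on the y axis, against the number of genes counted from the highest down on the x axis; each line is 1 AF library. The dashed line, AF MDL-800 25, starts at 49.7% for heavy and 53.8% for kappa genes and lies above the other 9 libraries over the 30 genes drawn, their leading gene holding between 5.85% and 24.4%.

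Several leading genes, though not most under MDL-800, were shared by an NP and an AF library. The column names of the table carry a further number after the treatment, and an NP and an AF column share it in 5 cases in vehicle (8, 9, 10, 12 and 13) and in 3 cases under MDL-800 (36, 37 and 39). Neither the headers nor the labels say what this number is. Libraries with the same number had the same leading heavy gene in 2 of 5 cases in vehicle and 0 of 3 under MDL-800, and the same leading kappa gene in 4 of 5 and 1 of 3. Ighv1-78 stood at 119 scaled FPKM in NP vehicle 6 and 333 in AF vehicle 13, both numbered 13. Elsewhere it was at most 7.40 in NP, and its next highest AF value was 115 in AF vehicle 9. Igkv4-63 stood at 209 and 612 in the same libraries, beside 4.02, 8.42, 0.395 and 11.5 in the other NP vehicle libraries and 4.16, 23.2, 96.4 and 40.1 in the other AF vehicle libraries, and it also led AF MDL-800 29 at 122. Both libraries numbered 13 therefore shared their leading heavy and their leading kappa gene.

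The libraries numbered 9 shared another pair. Ighv11-2 was at 0, 15.6, 0.162, 3.48 and 0 in NP vehicle and 17.8, 192, 3.70, 9.11 and 6.71 in AF vehicle, and Igkv14-126 at 0, 34.9, 0.496, 6.10 and 0.316 and 42.0, 489, 6.15, 15.2 and 13.8, with NP vehicle 2 and AF vehicle 9 the highest of their groups for both. Ighv1-42 followed the same pattern, at 30.1 and 154, with no other vehicle library above 3.79. As background, the joined heavy gene Ighv11-2 and kappa gene Igkv14-126 are known together from mouse B-1 cells whose IgM binds phosphatidylcholine, and these libraries do not show whether the chains were paired in the same cells. The libraries numbered 8 shared Ighv9-3, at 18.5 and 261, and Igkv6-15, at 15.0 and 305, as leading genes, although Ighv9-3 also led AF vehicle 10 at 154 and NP vehicle 6 held more Igkv6-15 than NP vehicle 1, at 18.9. Those numbered 10 shared Igkv1-117 as leading kappa gene, at 10.5 and 216. In NP vehicle 3, which carries number 10, Ighv9-3 was only at rank 21 among heavy variable genes, at 1.28. The libraries numbered 10 also shared Ighv2-4, which stood at 12.1 and 15.3 and at most 4.33 in any of the other 18 libraries. The libraries numbered 12 shared no leading gene. Ighv1-26 and Igkv4-63 led NP vehicle 5 at 11.9 and 11.5 and stood at ranks 2 and 8 of their chains in AF vehicle 12, at 46.5 and 40.1, where other AF vehicle libraries held more of each. Ighv1-9 and Igkv1-117 led AF vehicle 12 at 63.6 and 70.5 and stood at ranks 13 and 4 in NP vehicle 5, at 2.72 and 7.15.

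Under MDL-800, 3 NP libraries had a counterpart in AF. The libraries numbered 37 (NP 20 and AF 28) had Igkv19-93 as leading kappa gene, at 8.09 and 205, and shared Ighv2-3, the leading heavy gene of the NP library, at 7.01 and 141, where no other AF library exceeded 39.9 and NP vehicle 6 held 8.30. Igkv19-93 was also abundant in other libraries, such as AF vehicle 9 at 182, and the leading heavy gene of AF 28, Ighv1-53 at 238, stood at rank 7 in NP 20, at 1.49. Igkv15-103 led the kappa genes of NP MDL-800 19 at 10.4 and was highest in its AF counterpart 27 at 153, yet NP MDL-800 18 held 29.2. The other leading genes of these libraries, numbered 36, were not shared. Ighv5-4 led NP 19 at 9.26 and stood at rank 31 in AF 27, at 15.7, while Ighv1-26 and Igkv6-23 led AF 27 at 190.4 and 242 and were listed at 0 in NP 19. Among the libraries numbered 39, Ighv14-3 led in NP 22 at 14.5 and AF 30 had the highest AF value, 77.6. The leading kappa gene of NP 22, Igkv6-32 at 18.2, was only at rank 27 in AF 30, at 32.1. The leading genes of AF 30, Ighv1-26 at 98.6 and Igkv3-2 at 182, stood at ranks 2 and 3 in NP 22, at 8.48 and 11.1. The remaining libraries share no number across the tissues. NP MDL-800 15 was led by Ighv1-62-2 at 16.0 and by Igkv10-96 at 48.6, which was 36.4% of its kappa variable level, NP MDL-800 18 by Ighv1-53 at 14.0 and Igkv15-103, and AF MDL-800 29 by Ighv1-72 at 126 beside Igkv4-63. AF MDL-800 25 has no NP library with its number, and in NP the leading genes of that library, Ighv1-80 and Igkv16-104, reached at most 7.78 and 4.19 scaled FPKM.

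Over the 145 tested heavy and kappa variable genes, each library's deviation from its group mean on the log2 scale was correlated between every NP and AF library of a treatment. Pearson's r was 0.25, 0.50, 0.20, 0.33 and 0.50 for the vehicle pairs numbered 8, 9, 10, 12 and 13, and between -0.28 and 0.13 for the 20 pairs with different numbers. In all 5 cases the NP library correlated best with the AF library of its own number. Under MDL-800 it was 0.14, 0.25 and 0.17 for numbers 36, 37 and 39 and between -0.29 and 0.11 for the other 22 pairs, and the best partner had the same number in 3 of 3 cases. Taken apart, the best partner had the same number in 5 of 5 and 2 of 3 cases over the 75 heavy genes and in 4 of 5 and 1 of 3 cases over the 70 kappa genes. Over the tested genes that are no members, r for the same numbers was between -0.20 and 0.25 in vehicle and between -0.20 and 0.16 under MDL-800, and the best partner had the same number in 1 of 5 and 1 of 3 cases. These values describe the libraries: genes of a library are not independent, and deviations within a group sum to 0, so that a high value for some pairs lowers the rest.

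**Figure D4:**
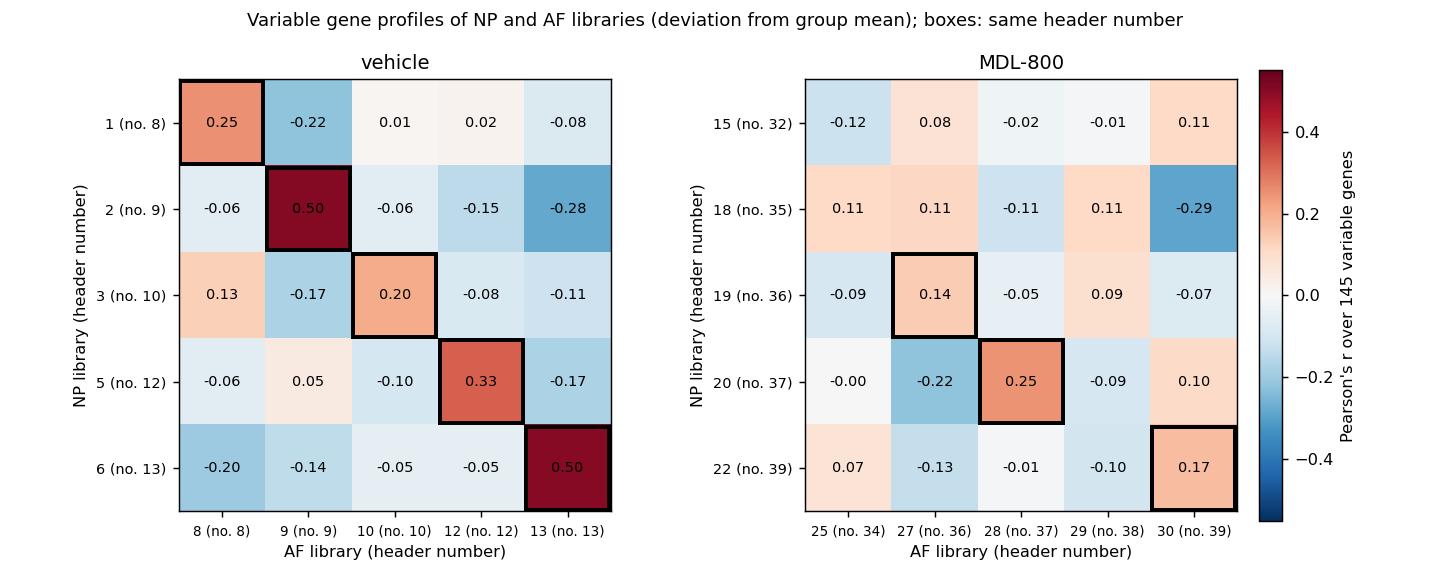
Pearson's r between NP libraries (y axis) and AF libraries (x axis) over 145 variable genes, for vehicle (left) and MDL-800 (right), each value being a deviation from the group mean; colour runs from blue (negative) to red (positive) and boxes mark libraries with the same number in their column names. The boxed values, 0.20 to 0.50 in vehicle and 0.14 to 0.25 under MDL-800, are the highest of their rows.

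The treatment comparison asked whether antibody transcripts changed with MDL-800 in either compartment. No member passed the test in AF or NP. In AF, 0 of 160 tested members were called by limma, beside 0 of 16383 genes (0.0%). At an unadjusted p under 0.05 there were 16 members, all higher under MDL-800, where 1.65% of all genes reached that level. The log2 difference was above 0 for 117 of 160 members, beside 52.6% of all genes, with a median of 0.52 against 0.01 over all genes. Members of a library are not independent, so these counts, and those given below for NP and for the difference of effects, are a description. Differences were 0.67 for Igkc (SE 0.38), 0.74 for Igha (SE 0.35), 0.58 for Jchain (SE 0.28) and 0.37 for Ighm (SE 0.51), each with a limma adjusted p of 1 and with overlapping groups. Leaving out AF MDL-800 25 turned the Ighm difference to -0.12.

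The constant gene with the smallest p in AF was Ighg2b, the IgG2b gene, with a log2 difference of 1.25 (SE 0.42; limma adjusted p = 1). The exact two-sided permutation test of this gene alone gave p = 0.0238, the only value under 0.05 among the 12 genes tested this way in AF, before any correction over the 48 such tests made. AF vehicle 8, at 72.9, overlapped with 2 MDL-800 libraries. Igkv8-21 was the only member whose AF groups did not overlap, at 22.1, 7.14, 18.5, 16.0 and 5.60 in vehicle and 46.5, 39.4, 59.0, 32.3 and 23.2 under MDL-800 (limma adjusted p = 1), where 0.226% of all genes showed no overlap. It was picked out after its values were seen. Summed bone markers were at 1916, 1891, 3072, 3310.0 and 3244 in AF MDL-800 against 3197, 995, 1228, 725 and 1119 in AF vehicle, where library 8 lay inside the MDL-800 range, with 0 of 10 markers called. Their part in the antibody levels was not tested.

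In NP, limma called 0 of 160 members, beside 41 of 16383 genes (0.25%), and 10 members had an unadjusted p under 0.05, beside 14.1% of all genes. The median log2 difference of the members was -0.27, against -0.03 over all genes, and 41 of 160 lay above 0, where 42.6% of all genes did. Igkc was -0.65 (SE 0.58; limma adjusted p = 0.668) and Jchain -0.72 (SE 0.45; limma adjusted p = 0.517), with NP vehicle 6 above and NP MDL-800 20 below the other libraries. Ighg1 was the constant gene with the smallest p, at 1.51 (SE 0.60; limma adjusted p = 0.282), from 4 of 5 vehicle and 1 of 5 MDL-800 libraries at 0. Without NP MDL-800 19, Igkv12-44 was called lower under MDL-800, at -2.16 (SE 0.30; limma adjusted p = 0.0497). The gene was picked out after its values were seen. With all libraries it was -1.66 (limma adjusted p = 0.173), and library 19 held 7.26 against at most 1.70 in the other MDL-800 libraries.

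The difference between the treatment effects in NP and AF was tested in a fit of all 4 groups. It was called for 0 of 160 members, beside 0 of 16383 genes (0.0%), and 18 members had an unadjusted p under 0.05, beside 3.73% of all genes. The median over members was -0.83, against -0.02 over all genes. Jchain gave -1.30 (SE 0.56; limma adjusted p = 1) and Igkc -1.32 (SE 0.71; limma adjusted p = 1). No difference in response between the tissues passed the test, and with standard errors of this size only large differences could have.

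Genes of the same pathway, taken from lists chosen for this tissue, differed in how many were called lower in NP, beside the 33.9% of all genes called lower in vehicle and 37.2% under MDL-800. Many list genes, like the members, needed AF libraries to pass the filter, which favours such a call, so each count is also given for the genes that reached 1 FPKM in 5 or more NP libraries, where 25.4% and 29.0% of all genes were called lower. All 13 tested B cell markers were called lower in NP in both treatments, as were all 5 tested markers of B cell precursors. The B cell markers include Cd37, a membrane protein, and Cd79a, a signalling part of the B cell receptor. The precursor markers include Dntt, which adds bases at the joints, and Vpreb3. Of these, 3 B cell markers and 0 precursor markers reached 1 FPKM in at least 5 NP libraries, and those 3 were called lower in both treatments. Vpreb2 was listed at 0 in all 10 NP libraries. Of 14 plasma cell genes, 9 were called lower in both treatments and 1, Eaf2, higher, at 0.54 (SE 0.11; limma adjusted p = 0.00174) in vehicle, while Irf4, Tnfrsf17, Derl3 and Txndc5 passed in neither. Of the 8 plasma cell genes that reached 1 FPKM in 5 or more NP libraries, 4 were called lower in both. The log2 difference NP minus AF in vehicle was -2.92 (SE 0.35; limma adjusted p = 6.12e-05) for Cd79a, -3.47 (SE 0.48; limma adjusted p = 0.000139) for Cd37 and -2.56 (SE 0.47; limma adjusted p = 0.000857) for Vpreb3. It was -0.67 (SE 0.12; limma adjusted p = 0.000936) for Xbp1, a transcription factor of secretory cells, and -0.18 (SE 0.10; limma adjusted p = 0.165) for Txndc5, a folding enzyme. The median over the list was -2.33 for the B cell markers and -0.79 for the plasma cell genes, whose summed level in NP was 118 to 150 scaled FPKM. Summed B cell markers were 9.00, 6.33, 6.15, 5.75 and 24.9 scaled FPKM in NP vehicle and 163, 156, 117, 68.7 and 176 in AF vehicle. NP vehicle 6, the highest NP library for Igkc and Jchain, was also the highest for B cell markers. It was not the highest for the plasma cell genes, at 143 against 150 in NP vehicle 3.

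Most antibody receptors and genes of the plasma cell niche were called lower in NP as well. Of 10 tested antibody receptors and transporters, 10 were called lower in NP in vehicle and 9 under MDL-800, the exception being Fcgrt, the neonatal Fc receptor that recycles IgG, at -0.60 (SE 0.15; limma adjusted p = 0.00638) in vehicle and -0.15 (SE 0.10; limma adjusted p = 0.193) under MDL-800. Fcer1g, the signalling chain shared by several Fc receptors and the highest gene of this list, was at -4.39 (SE 0.62; limma adjusted p = 0.000172) in vehicle. Of 13 genes of the plasma cell survival niche, among them Cxcl12, which retains plasma cells in marrow, 10 and 11 were called lower, Cxcl12 at -3.52 (SE 0.30; limma adjusted p = 1.04e-05) and Il6st, a receptor subunit for IL-6, at -0.70 (SE 0.16; limma adjusted p = 0.00333) in vehicle. Tnfsf13 and Cd80 were called in neither treatment. Of 14 genes of secretory protein folding, including Hspa5, 10 and 11 were called lower and 1, Dnajb9, a co-chaperone, higher, at 0.36 (SE 0.13; limma adjusted p = 0.0404) in vehicle. Pdia4 and Dnajc3 were called in neither treatment, and Hsp90b1, an abundant chaperone, was called lower under MDL-800 alone, at -0.21 (limma adjusted p = 0.0973) in vehicle and -0.38 (limma adjusted p = 0.0125) under MDL-800. Of the genes that reached 1 FPKM in 5 or more NP libraries, those called lower in vehicle and under MDL-800 were 5 and 4 of 5 receptors, 4 and 4 of 6 niche genes and 9 and 10 of 13 folding genes. The list genes that were called higher or in neither treatment are named because they stood apart from their lists, after their values were seen. Hspa5, the main chaperone of the secretory pathway, stood at -0.50 (SE 0.13; limma adjusted p = 0.00703) in vehicle. Bcl6, a germinal centre regulator, was at -1.44 (SE 0.18; limma adjusted p = 7.01e-05) and Mki67, a proliferation marker, at -3.47 (SE 0.33; limma adjusted p = 1.59e-05). No gene of these lists was called in either treatment comparison.

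Markers of other marrow and blood cells differed between the tissues together with the antibody genes. All 12 T cell, 9 red blood cell, 12 neutrophil, 11 macrophage, 9 endothelial and 10 bone markers tested were called lower in NP in both treatments, beside 33.9% and 37.2% of all genes. Of these 63 markers, 36 reached 1 FPKM in at least 5 NP libraries, namely 0 T cell, 8 red blood cell, 12 neutrophil, 8 macrophage, 3 endothelial and 5 bone markers, and the other 27 needed AF libraries to pass the filter. The 2 highest genes of each list were Trbc2 and Trac (T cell), Hbb-bs and Hba-a2 (red blood cell), S100a8 and S100a9 (neutrophil), Lyz2 and C1qb (macrophage), Egfl7 and Pecam1 (endothelium) and Col1a1 and Bglap (bone). Their log2 differences in vehicle ran from -4.79 for C1qb to -1.20 for Egfl7. Summed neutrophil markers ran from 223 to 3384 scaled FPKM in NP vehicle and from 8084 to 21170 in AF vehicle, and summed bone markers from 36.0 to 143 and from 725 to 3197. NP vehicle 6 had the highest summed neutrophil, macrophage, B cell and T cell markers of the NP libraries. Red blood cell markers were highest in NP MDL-800 22 (239, against 218 in NP vehicle 6). Bone and endothelial markers were highest in NP MDL-800 19, at 279 and 27.9 against 143 and 21.9 in NP vehicle 6. The Igkc level of NP MDL-800 19 was 89.4. NP MDL-800 20, the lowest for Igkc, had the lowest B cell, T cell, red blood cell, neutrophil and bone sums. Its macrophage and endothelial sums were not the lowest. The part of these cells in the antibody levels was not tested. As a check of the tissue labels, 9 of 9 tested NP markers, among them Car3 and Cd24a, were called higher in NP in vehicle and 8 under MDL-800, and 7 and 6 of 8 AF markers, among them Dcn, were called lower. Fmod, a small proteoglycan, was called in neither treatment and lay on the other side, at 0.48 (SE 0.22; limma adjusted p = 0.0946) in vehicle. Summed NP markers were 25918 to 31023 scaled FPKM in NP vehicle. In AF vehicle 9 they stood at 15172, against 2515 to 7154 in the other AF vehicle libraries.

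**Figure D5:**
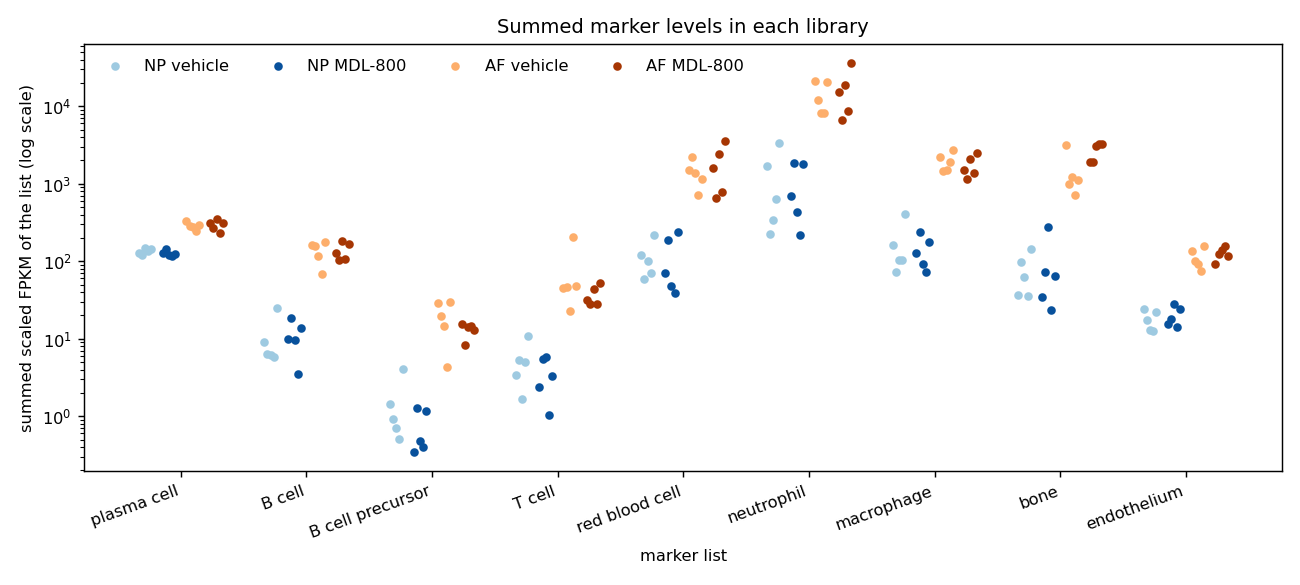
Summed scaled FPKM of 9 marker lists in each library, on a log y axis, by list on the x axis; points are libraries coloured by group. AF points lie above NP points for every list shown, from plasma cell genes (118 to 150 in NP, 234 to 349 in AF) to neutrophil markers (216 to 3384 in NP, 6633 to 35777 in AF).

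Across the 10 AF libraries, the genes outside the immunoglobulin set whose log2 values followed the mean of Jchain and Igkc most closely were Lpar2 (Pearson's r = 0.90), Ulk3 (0.90), Pdcd2l (0.88), Ssc4d (0.84), Zfp688 (0.83), Derl3 (0.82), Mre11a (0.82), Izumo4 (0.81), BC065397 (0.81) and Gm2415 (0.80). They are the highest of 16223 genes over n = 10 libraries, so the values describe a ranking. Derl3, which takes part in the degradation of misfolded secretory proteins, was the only gene among them from the plasma cell list, at a mean of 2.91 scaled FPKM in AF.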

How the data were processed

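Total RNA from 20 disc tissue samples was made into stranded libraries from 50 ng of RNA after ribosomal RNA depletion, with 14 PCR cycles, per the labels' protocols. The authors deposited 1 table of FPKM values for 51789 genes. STAR 2.7.11b and the mm10 build are named in the submitters' processing notes, and the counting program, its handling of reads that match several variable genes and the annotation are not given in the sources used here. Reads that fit near-identical genes may have been dropped, split or given to either gene. V-to-D-to-J joints and hypermutated bases can lower mapping, so levels of variable genes are compared only with care.

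Each column was assigned to its sample by name. FPKM were divided by a median-ratio factor per library (0.933 to 1.06, over 11308 genes) and log2(scaled FPKM + 1) was fitted with limma 3.58.1 in R 4.3.3 (mean-variance trend, Benjamini-Hochberg adjustment over 16383 genes with at least 1 FPKM in at least 5 libraries, threshold 0.05). The 5 libraries of each group entered 4 comparisons, fitted on the 2 groups compared, and a fit of all groups for the difference of treatment effects. Single constant genes and Jchain were also tested by exact permutation of the libraries taken as unpaired (scipy 1.17.1, Python 3.11.15). The fitting was tested on simulated data. Labels do not say that samples of a group are separate animals, so p-values measure the spread between these samples. Depth was estimated from the spacing of low FPKM values of single-exon genes of 400 to 1200 bases, on which 82.5% to 88.5% of values fell within 0.2 fragments of a whole number. These are estimates, and no interval was made from them. The members and the gene lists were chosen with earlier results of these data known.

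Named genes are all constant genes and Jchain, the 5 heavy, 5 kappa and all lambda variable genes with the highest mean, the leading heavy and kappa gene of each library, the 2 highest genes of each list, and the 10 genes most correlated with Jchain and Igkc over the AF libraries. Pairing by the number in the column names is not stated by the labels. Same-numbered libraries all correlated above 0.1 over the variable genes, and not all did over the tested genes outside the immunoglobulin set. The latter does not show that the libraries are unpaired. The fits have no block, and the block is given as an alternative. Alternatives were another pseudocount (0.1), other filters, no scaling, quantile normalization, no trend, all groups in 1 fit, a block by column number, the 3 numbers shared under MDL-800 alone and leaving out each library. Sequences were read from GENCODE M21 transcripts on GRCm38, to which 51596 gene identifiers matched.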

Additional observations from a re-analysis of the deposited data

Results flagged for a closer look

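Within each group of 5, the highest and lowest library of every named value was compared with the rest, and 33 of 213 groups had a library whose gap to its nearest neighbour was more than 0.71 of the group's range. Gaps were measured on the log2(scaled FPKM + 1) scale for single genes and on the values themselves for sums, shares and effective numbers. For normally distributed values chance gives such a gap in about 1 in 20 groups, a rate that need not hold here because many levels are skewed or at 0. All values are scaled FPKM unless stated, and none of these gaps was explained or tested further.

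AF MDL-800 25 stood apart from the other 4 libraries of its group in Ighm (2233, others 291 to 520.1), Ighg3 (128, others 1.69 to 2.27) and Igkv16-104 (3074, others 8.52 to 47.1). It also stood apart in the share of the leading heavy gene (49.7%, others 5.85% to 12.7%), the share of the leading kappa gene (53.8%, others 7.19% to 9.70%) and the effective number of kappa genes (3.23, others 25.2 to 34.1). In the same group AF MDL-800 28 was high in Ighv1-78 (50.0, others 4.52 to 7.63), and AF MDL-800 30 in Ighv2-4 (4.33, others 0 to 0.385) and Iglc4 (0.654, others 0).

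NP vehicle 6 was high in Jchain (39.7, others 8.38 to 13.2), Iglc2 (11.0, others 1.29 to 2.43), Ighv1-9 (10.4, others 1.55 to 2.72), Ighv1-62-2 (2.10, others 0 to 0.351) and the summed heavy constant genes (280.3, others 74.9 to 88.6). NP vehicle 2 was high in Ighv1-42 (30.1, others 0 to 1.55) and Ighg1 (1.04, others 0). NP vehicle 3 was high in Ighv2-4 (12.1, others 0) and low in Ighg2c (0.395, others 4.14 to 6.42), Ighv1-53 (1.55, others 3.33 to 4.22) and Igkv19-93 (0.263, others 5.28 to 10.2). NP vehicle 5 was high in Ighg3 (2.84, others 0 to 0.355) and low in Ighv1-80 (0, others 4.04 to 7.78), and NP vehicle 1 was low in Igkv1-117 (0, others 5.60 to 10.5).

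Among AF vehicle libraries, 9 was high in Ighd (12.4, others 5.88 to 7.26) and Ighv1-42 (154, others 0.895 to 3.79), 10 was high in Ighv2-4 (15.3, others 0 to 0.637) and 8 was low in Iglc1 (27.2, others 60.0 to 71.2). In NP MDL-800, library 22 was high in Igkv16-104 (3.80, others 0), Igkv4-63 (5.05, others 0 to 0.558), Iglv2 (4.62, others 0), Ighv1-78 (4.94, others 0) and the summed lambda constant genes (33.1, others 0.741 to 8.42). NP MDL-800 20 was high in the IgG share of the heavy constant genes (38.1%, others 7.20% to 14.9%).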

How the results depend on the processing

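In NP, MDL-800 against vehicle called 41 genes, which became 16 without a filter on low values, 74 with 1 FPKM in at least 10 libraries, 18 without scaling, 70 after quantile normalization, 18 without the mean-variance trend and 4 with all 4 groups in 1 fit, and 2 to 189 when 1 library was left out (2 without NP vehicle 3 or NP MDL-800 22, 189 without NP vehicle 6), while members called went from 0 to between 0 and 1. In AF, leaving out 1 library called 0 to 1 genes (1 without AF MDL-800 25 and 1 without AF MDL-800 29), and the difference of treatment effects likewise 0 to 1 (1 without AF MDL-800 30), with 0 members in each case. Members called lower in NP ranged from 105 to 121 in vehicle and from 128 to 143 under MDL-800 when 1 library was left out. The Ighm difference in AF ran from -0.12 (without AF MDL-800 25) to 0.61 and was -0.16 without AF MDL-800 25 and AF vehicle 13, a pair of omissions chosen after seeing the data. Ighg3 in vehicle fell to -1.71 (limma adjusted p = 0.0749) without NP vehicle 6 and AF vehicle 13. Under MDL-800 it ran from -2.87 to -1.48 over single omissions, with a limma adjusted p of 0.063 without a filter and 0.0701 after quantile normalization. The replicate block by column number, added after seeing the data, called 132 members and 8783 genes in vehicle, against 118 and 9127 without it, and 130 members and 7858 genes over the 3 pairs under MDL-800, where the same 6 libraries without the block called 125 members and 8303 genes. Ighg1 under MDL-800 (-2.68 over these 6 libraries) passed without the block (limma adjusted p = 0.0406) and not with it (0.0959). With the block, no other constant gene, nor Jchain, changed its call. The causes were not tested. Of the constant genes and Jchain, the tissue calls of all but Ighg1 and Ighg3 held in every alternative run. In NP, 1 fragment is worth 0.242 to 0.472 FPKM on a heavy variable gene, so levels near 1 rest on few fragments.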
